A study of Mus musculus with 8 samples.

Results

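The genes described here had higher mRNA levels in KO than in WT bone marrow derived macrophages (BMDMs) in each of 2 experiments. Members were chosen by the measured KO and WT values themselves: within each experiment, a member's lowest KO value was at least 1.7 times its highest WT value and its mean KO value was at least 2 counts per 1000000 counts of its library (CPM). Of 53735 listed genes, 10758 had a mean KO CPM of at least 2 in each experiment and 68 of these met the rule (0.632%). Kif21a, Dennd3, Kifc2, Rpl3-ps1, Ctse and Lifr were left out, which left 62 members. The ratio was passed in experiment 1 only by 814 of these genes and in experiment 2 only by 400.

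WT mice were Mkl1+/+, Apoe-/- and KO mice were Mkl1-/-, Apoe-/-, on a C57BL/6J background, all male and 6 months old. Every mouse lacked Apoe and received angiotensin II (Ang II), a vasoconstrictor peptide, for 7 days before marrow was taken, and the cells were cultured for 7 days to become macrophages. Loss of Mkl1 was global in the KO animals, so it preceded both the infusion and the culture. Each experiment held 2 WT libraries (WT1 and WT2 in experiment 1, WT3 and WT4 in experiment 2) and 2 KO libraries (KO5 and KO6 in experiment 1, KO7 and KO8 in experiment 2).

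MKL1, also called MRTFA, is a coactivator of serum response factor (SRF) that is held in the cytoplasm by actin monomers and enters the nucleus when actin polymerizes. SRF binds a sequence called the CArG box near genes of the actin cytoskeleton, among them Actb and Vcl. Macrophages take up and digest material in lysosomes, whose enzymes and transporters are controlled in part by the factors TFEB and TFE3. These factors bind a short E-box in promoters. FOXO factors, which are active when growth factor signalling is low, bind a forkhead sequence.

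The libraries held between 33977799 and 41584540 counts. Mkl1, on chromosome 15, had 25.1, 27.2, 24.9 and 29.3 CPM in WT1 to WT4 and 20.3, 22.02, 14.5 and 10.6 CPM in KO5 to KO8. All 4 KO libraries lay below all 4 WT libraries (exact permutation test, two-sided, p = 0.0286; with libraries permuted only within their experiment, 36 arrangements, p = 0.0556, each the smallest possible), and the log2 difference was -0.78 ± 0.19 (SE; edgeR quasi-likelihood test, Benjamini-Hochberg adjusted p = 0.0534). Transcript from the locus thus remained countable in KO libraries. Kif21a, one of the genes left out, had 6.51 to 9.90 CPM in KO libraries and 0.144 to 0.353 CPM in WT libraries. Over the 10758 genes, the KO libraries of experiment 2 were nearest to the WT libraries of experiment 1, with an SD of the log2 difference of group means of 0.308, against 0.597 to 0.773 for every other pair of the 4 groups. These nearest groups share neither genotype nor experiment. When the KO libraries were exchanged between the experiments, 7 genes met the rule, 3 of them among the 62. That exchange sets the nearest groups against each other, which leaves few genes able to reach a ratio of 1.7. Nothing is read from it.

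Defining macrophage markers were abundant in every library: Cd68, a lysosomal membrane protein, had 807 to 1507 CPM and Adgre1, which encodes F4/80, had 1759 to 8145 CPM. Summed fibroblast and stromal markers reached 169 to 229 CPM in the KO libraries of experiment 1, against 1.702 to 11.1 CPM in the other 6 libraries. Their part in the values below was not tested. No member was on that list or on any other marker list used here.

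Sequence around transcript starts of members is shown first. Promoter windows from 250 bases before to 50 bases after a transcript start were held by RefSeq (GRCm38.p6) for 39 of the 62 members, in 60 windows. The E-box TCACGTG, read on both strands, was in 10 of these 60 windows (16.7%), beside 6.34% of the windows of the 10758 genes and 3.77% of all windows. By gene it was found for 8 of 39 members (20.5%) and for 7.53% of the expressed genes: Pdzk1ip1, Tbc1d14, Gpr146, Fam214a, Slc36a1, Sgsh, Crebrf and Rab3il1. Sequence is shown for 5 of them, with the E-box in capitals. For Slc36a1 and Crebrf it ends just before the RefSeq start of the gene. For Tbc1d14 it lies within the gene, before an internal transcript start, and overlaps no GENCODE M21 exon. For Fam214a, whose match lies just past the RefSeq start of the gene, and for Sgsh only 30 bases around the match are shown. Those of Sgsh lie within the neighbouring gene Slc26a11.
Slc36a1, chr11:55204190-55204321, plus strand: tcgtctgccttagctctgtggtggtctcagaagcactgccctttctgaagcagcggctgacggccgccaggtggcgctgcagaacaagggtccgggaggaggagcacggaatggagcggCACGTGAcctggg
Crebrf, chr17:26715500-26715593, plus strand: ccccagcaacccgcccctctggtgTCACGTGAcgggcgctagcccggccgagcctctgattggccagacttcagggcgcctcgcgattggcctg
Tbc1d14, chr5:36582398-36582547, minus strand: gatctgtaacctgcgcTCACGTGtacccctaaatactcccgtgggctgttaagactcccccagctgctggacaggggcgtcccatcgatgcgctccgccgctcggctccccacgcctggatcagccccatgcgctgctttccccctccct
Fam214a, chr9:74952859-74952888, plus strand: tgttgttgggaCACGTGAccagggtagtgt
Sgsh, chr11:119355521-119355550, minus strand: ggcctgccgtgCACGTGAccgtggggagcg
In Crebrf the match lay at -126 and again at -14 bases from the transcript start of its window, and in Slc36a1 at -31 and at -4. The matches at -14 and -4 lie past the RefSeq start of the gene and are not shown. A match that reads TCACGTGA was found on both strands and is a single, overlapping site.

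The forkhead letters GTAAACA, on both strands, were in 7 of the 60 windows (11.7%), beside 2.61% of the windows of the 10758 genes and 3.65% of all windows. By gene these were 7 of 39 members (17.9%), beside 3.15% of expressed genes. They are Etl4, Gpr146, Fcgrt, Ypel3, Cnrip1, Jmy and Peli2, and 30 bases around the match are shown for 5 of them, each written along its gene's strand. The stretches of Gpr146 and Etl4 lie within the gene, before internal transcript starts. For Gpr146, Fcgrt, Cnrip1 and Peli2 the 150 bases before the transcript start overlap a GENCODE M21 exon.
Peli2, chr14:48120741-48120770, plus strand: cctttactctaTGTTTACataacacggggc
Cnrip1, chr11:17051818-17051847, plus strand: gattgtggtgcGTAAACAagattaactctc
Gpr146, chr5:139389830-139389859, plus strand: cgaaaccagctGTAAACAcagatagggagg
Fcgrt, chr7:45103920-45103949, minus strand: gctccaaacgaGTAAACAtagaagctgttt
Etl4, chr2:20289670-20289699, plus strand: agtgtgcagtgTGTTTACcttgccttgtgc
Gpr146 alone held both kinds of match, in windows of different starts. The other motifs did not all go the same way. The CArG box was in 0 of the 60 windows (1.29% of windows of expressed genes) and an NF-kB site in 0 (5.06%). The letters of a PU.1 site, GAGGAAG, were in 5 windows (8.33%, beside 13.6%), and those of an AP-1 site, TGANTCA, in 6 (10%, beside 4.92%). By gene, AP-1 letters were found for 6 of 39 members (15.4%), beside 5.95% of expressed genes. PU.1 letters were found for 4 (10.3%), beside 16.0%. These matches describe letters in 1 window per start and are no evidence of binding. The E-box and the forkhead letters were searched after the member list was known. The median GC content of the members' windows was 59.5%, beside 61.0% for expressed genes.

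The plot of the 12 members with the largest ratios gives every library. Because the rule chose members by KO and WT values, the ratios between KO and WT are a description and carry no test. Mean KO CPM was 1.89 to 56.7 times mean WT CPM in experiment 1 (median 2.69) and 1.76 to 24.3 times in experiment 2 (median 2.90). The fitted log2 difference over both experiments ranged from 0.90 in Zbtb38 to 5.07 ± 1.06 (SE) in RP24-250I16.1. Its median was 1.42, beside 0.01 over all 15618 genes tested. The largest value is uncertain, since RP24-250I16.1 had 20.1 CPM in KO5 and 0.50 CPM in KO6.

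**Figure D1:**
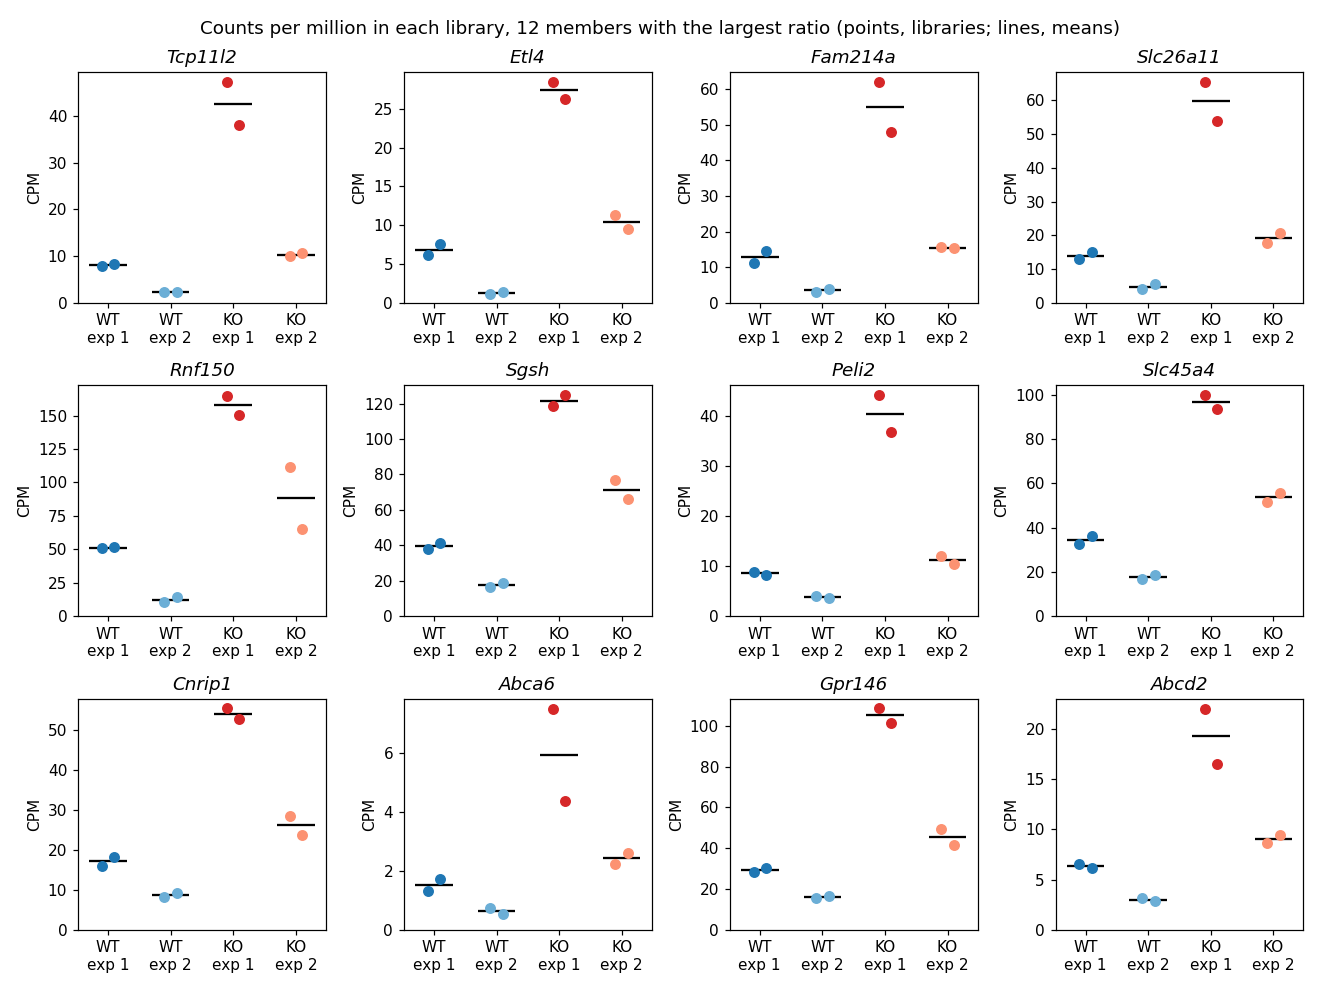
CPM (vertical axes, each from 0) in each library of the 12 members with the largest ratio of lowest KO to highest WT value, for WT and KO in experiments 1 and 2; points are libraries and lines are means of 2. In all 12 genes KO experiment 1 was highest and WT experiment 2 lowest.

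Lysosomal and solute transport genes made up 10 members, with ratios from 1.99 to 4.29 in experiment 1 and from 2.00 to 6.14 in experiment 2. Sgsh (chr11:119343489-119355510, minus strand), the sulfamidase that removes N-linked sulfate from heparan sulfate in lysosomes, had 37.7, 41.4, 16.5 and 18.6 CPM in WT1 to WT4 and 118, 125, 76.9 and 65.9 CPM in KO5 to KO8. Every KO library was above every WT library, by 1.59 times at the closest. Slc26a11 (chr11:119355509-119381076, plus strand), an anion transporter, starts head to head with Sgsh, and the annotated ends of the pair overlap by 2 bases. It had 12.8, 15.01, 3.92 and 5.62 CPM in WT and 65.4, 54.0, 17.6 and 20.7 CPM in KO libraries, in the same order of groups as Sgsh. Reads over the overlap were not measured, and the strand option of the counting is not given in the sources used here.

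Other enzymes of heparan sulfate breakdown were looked at as relatives of Sgsh. None of the 7 tested passed the test in either direction (edgeR, adjusted p 0.207 to 0.990): Naglu had a log2 difference of 0.30 and Idua of 0.22. Slc36a1 (chr11:55204322-55236330, plus strand), which carries protons and small amino acids out of lysosomes, had 15.1, 16.6, 10.5 and 10.9 CPM in WT and 34.5, 37.8, 24.0 and 24.4 CPM in KO libraries. Its groups did not overlap, and its E-box at -31 is in capitals above. Gpr155, a lysosomal cholesterol sensor, had 15.3, 19.9, 5.96 and 7.13 CPM in WT and 63.5, 58.0, 23.5 and 16.8 CPM in KO libraries, so that KO8 lay below WT2.

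Abcd2, a peroxisomal transporter of very long chain fatty acids, had 6.59, 6.15, 3.11 and 2.82 CPM in WT and 22.1, 16.5, 8.69 and 9.48 CPM in KO libraries. Abca6, of the lipid transporter family, was low, with 0.513 to 1.71 CPM in WT and 2.23 to 7.47 CPM in KO libraries. Slc45a4 had 32.7, 36.3, 16.7 and 18.6 CPM in WT and 100.1, 93.7, 51.8 and 55.6 CPM in KO libraries. The groups of these 3 genes did not overlap. Fxyd2, a small regulator of the sodium pump, did overlap, with 16.0, 18.1, 4.56 and 1.77 CPM in WT and 57.4, 40.5, 28.6 and 10.3 CPM in KO libraries. Slc37a2, a sugar phosphate exchanger of macrophages, was the most abundant of the 62 members, at 143 to 256 CPM in WT and 302 to 502 CPM in KO libraries. Slc7a4 had 0.994 to 2.94 CPM in WT and 3.65 to 7.40 CPM in KO libraries.

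Ubiquitin ligases, their adaptors and the mitophagy kinase Pink1 made up 7 members. Peli2, a Pellino ubiquitin ligase of Toll-like receptor signalling, had 8.75, 8.30, 3.95 and 3.68 CPM in WT and 44.1, 36.9, 12.05 and 10.3 CPM in KO libraries. Rnf150, which holds a RING domain, had 50.9, 51.7, 10.2 and 14.2 CPM in WT and 165, 150.2, 112 and 65.4 CPM in KO libraries. The HECT ligase Nedd4 had 12.7, 16.8, 4.61 and 4.16 CPM in WT and 78.3, 81.4, 11.6 and 11.04 CPM in KO libraries. It was the only member whose KO mean in experiment 2 lay below the WT mean in experiment 1, at 0.766 times. Arrdc3, an arrestin-like adaptor that brings NEDD4 class ligases to receptors, had 18.6, 20.01, 7.34 and 9.98 CPM in WT and 85.9, 66.7, 26.8 and 22.5 CPM in KO libraries, with no overlap. Fbxl20 had 16.5 to 34.1 CPM in WT and 39.4 to 87.9 CPM in KO libraries, also with no overlap.

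Relatives of these ligases differed among themselves. Wwp1, a NEDD4 class ligase at 200 to 429 CPM in WT and 415 to 957 CPM in KO libraries, rose (log2 difference 0.95 ± 0.11 (SE), edgeR adjusted p = 0.00737), and its smaller ratio of 1.69 put it just outside the rule. Itch, Nedd4l, Smurf1, Smurf2 and Wwp2 did not pass, with log2 differences of -0.13 to 0.42. Peli1 had a log2 difference of -0.57 and Peli3 of -0.16, neither past the test. Arrdc1, Arrdc2 and Arrdc4 had log2 differences of 0.30, 0.55 and -0.22, and none passed.

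Surface receptors, ligand enzymes and the receptor-binding protein Cnrip1 made up 8 members. Cxcr4, the receptor of the chemokine CXCL12, had 71.8, 97.3, 23.4 and 33.7 CPM in WT and 328, 211, 243 and 173 CPM in KO libraries. Its lowest KO library was 1.78 times its highest WT library over both experiments. Cxcl12 itself was at 0.146 to 0.586 CPM in 6 libraries and at 11.4 and 14.3 CPM in KO5 and KO6, the libraries with the higher fibroblast markers, and did not pass the test (adjusted p = 0.403). Colec12, a scavenger receptor with a collectin domain, had 33.8, 35.3, 25.7 and 28.7 CPM in WT and 98.6, 103, 80.1 and 70.0 CPM in KO libraries. Cxcr4, Colec12 and Lrrc14b were the 3 members that passed the ratio of 1.7 over all 8 libraries at once, at 1.78, 1.98 and 2.12 times.

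Gpr146, an orphan receptor, had 28.1, 30.1, 15.6 and 16.5 CPM in WT and 109, 102, 49.4 and 41.4 CPM in KO libraries. Cnrip1, a protein that binds cannabinoid receptor tails, had 16.0, 18.1, 8.10 and 9.21 CPM in WT and 55.4, 52.7, 28.5 and 23.7 CPM in KO libraries. Lpar6, a receptor of lysophosphatidic acid, had 39.99, 39.94, 14.4 and 14.2 CPM in WT and 112, 79.9, 41.98 and 39.0 CPM in KO libraries, with KO8 just below WT1. Enpp2, which encodes autotaxin, the secreted enzyme that makes lysophosphatidic acid, had 0.601, 2.00, 0.459 and 0.713 CPM in WT and 7.19, 10.6, 1.23 and 2.92 CPM in KO libraries, and its groups overlapped. Of the other receptors of this ligand, Lpar5 rose (log2 difference 1.29, adjusted p = 0.0265, edgeR) and Lpar1 fell (log2 difference -1.73, adjusted p = 0.0476). Leaving out 1 library ended the call of Lpar5 without WT1, WT4, KO5 or KO7 (adjusted p 0.0705 to 0.0973) and that of Lpar1 without any library but WT2 (adjusted p 0.0732 to 0.145). Lpar1 had 29.02 and 34.6 CPM in the WT libraries of experiment 2 and 4.38 to 8.46 CPM in the other 6 libraries. Fcgrt, the neonatal Fc receptor, had 19.2 to 40.5 CPM in WT and 40.5 to 93.3 CPM in KO libraries, and its groups met at WT2 and KO7.

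Adhesion, matrix and cytoskeleton genes made up 10 members, with median ratios of 2.15 in experiment 1 and 2.63 in experiment 2. Kif21b, a kinesin motor related to Kif21a, had 32.9, 32.0, 19.5 and 17.9 CPM in WT and 71.5, 73.9, 60.8 and 47.3 CPM in KO libraries. Eps8, a regulator of actin filament ends, had 29.05, 47.1, 14.2 and 16.2 CPM in WT and 102, 118, 74.6 and 44.5 CPM in KO libraries, so KO8 lay below WT2. Epb41l3, a linker of membrane and cytoskeleton, had 1.61, 2.35, 1.20 and 1.11 CPM in WT and 14.2, 16.2, 3.46 and 2.48 CPM in KO libraries. Itgb5, an integrin beta chain, had 73.6 to 112 CPM in WT and 129 to 297 CPM in KO libraries, and Sdc2, a heparan sulfate proteoglycan, had 1.94 to 6.62 CPM in WT and 4.55 to 13.5 CPM in KO libraries. Lama3, Dchs1, Arhgap24 and Jmy also belong to the group.

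Beside these, of 17 tested genes of the fixed list of MRTF and SRF targets, 0 rose and 5 fell (Srf, Vcl, Actb, Actg1 and Itga5), where 3.59% of the 15618 genes rose and 3.26% fell. The median log2 difference of the list was -0.20 over both experiments, -0.01 in experiment 1 and -1.41 in experiment 2. Actb had 9730 to 12623 CPM in WT and 5122 to 6311 CPM in KO libraries, and Itga5 had 102 to 187 CPM in WT and 52.5 to 92.2 CPM in KO libraries. Acta2, the second gene of the list, had 1.96 to 15.4 CPM in KO libraries and was highest in KO5 and KO6. With 1 library left out, Actb and Itga5 passed every time, while Srf missed in 6 of 8 fits (adjusted p 0.0525 to 0.0909; not without KO7 or KO8), Vcl without KO5 or KO6 (0.0584 to 0.0633) and Actg1 without WT1 or KO5 (0.0513 to 0.0515). No member was on that list.

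Transcription and chromatin genes made up 6 members. Zfp618, a zinc finger protein, had 3.94, 4.24, 2.24 and 0.684 CPM in WT and 13.3, 15.1, 13.7 and 5.32 CPM in KO libraries. Cbx8, a Polycomb chromobox protein whose gene lies 302.6 kb from Sgsh, had 1.32 to 3.41 CPM in WT and 4.28 to 7.45 CPM in KO libraries. Crebrf, a regulator of CREB3 factors, had 47.3 to 76.9 CPM in WT and 88.7 to 180.3 CPM in KO libraries. Zfp395 and Zbtb38 also belong to the group.

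Vesicle traffic genes made up 4 members, Rab3il1, Rab11fip5, Reps2 and Tbc1d14. Rab3il1, an exchange factor for Rab GTPases, had 113, 147, 61.3 and 66.9 CPM in WT and 312, 315, 224 and 171 CPM in KO libraries, with no overlap. Tbc1d14, a Rab11 binding regulator of autophagosome formation, had 21.8 to 33.7 CPM in WT and 38.7 to 74.6 CPM in KO libraries. Glycan and nucleic acid enzymes made up another 4, Man2a2, St6gal1, Neil2 and Ang. St6gal1, which adds sialic acid to N-glycans, had 24.8, 30.1, 21.6 and 19.7 CPM in WT and 153, 147, 41.7 and 47.5 CPM in KO libraries.

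The other 13 members have other or little known roles, among them the member with the largest ratio in its weaker experiment, Tcp11l2 (chr10:84576947-84614355, plus strand). It had 7.86, 8.21, 2.22 and 2.37 CPM in WT and 47.2, 38.1, 9.90 and 10.6 CPM in KO libraries. Etl4 had 6.08, 7.53, 1.12 and 1.34 CPM in WT and 28.4, 26.3, 11.3 and 9.46 CPM in KO libraries. Fam214a had 11.1, 14.5, 2.90 and 3.91 CPM in WT and 61.98, 48.2, 15.5 and 15.4 CPM in KO libraries. The groups of these 3 genes did not overlap. Their relatives Tcp11l1 and Fam214b had log2 differences of -0.26 and -0.25 and did not pass the test.

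Lrrc14b had 1.06, 1.35, 1.12 and 1.34 CPM in WT and 6.82, 6.22, 3.15 and 2.87 CPM in KO libraries. Nxpe5 had 14.8, 25.1, 9.76 and 11.7 CPM in WT and 214, 213, 117 and 26.2 CPM in KO libraries, so that KO7 and KO8 differed by 4.46 times. RP24-250I16.1, listed under a clone name and not placed, had 0.147 to 0.382 CPM in WT and 20.1, 0.50, 9.24 and 9.04 CPM in KO5 to KO8. Its ratio of 56.7 in experiment 1 rested on KO5, which was 40.2 times KO6. RP23-35A4.1 had 0.513 to 1.80 CPM in WT and 1.80 to 7.16 CPM in KO libraries. Of the YPEL family of small zinc binding proteins, Ypel3 had 6.14 to 23.4 CPM in WT and 22.8 to 52.3 CPM in KO libraries, and Ypel2 had 6.01 to 9.55 CPM in WT and 12.3 to 30.9 CPM in KO libraries. Ypel4 rose too (log2 difference 2.37, edgeR adjusted p = 0.0105) but stayed under 1 CPM, while Ypel1 and Ypel5 did not pass. Over 15 families with at least 1 member, 42 relatives that did not meet the rule were tested. Of these 3 rose (Ypel4, Lpar5 and Wwp1; 3.59% of all genes tested rose), 1 fell (Lpar1) and the median log2 difference was 0.23.

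**Figure D2:**
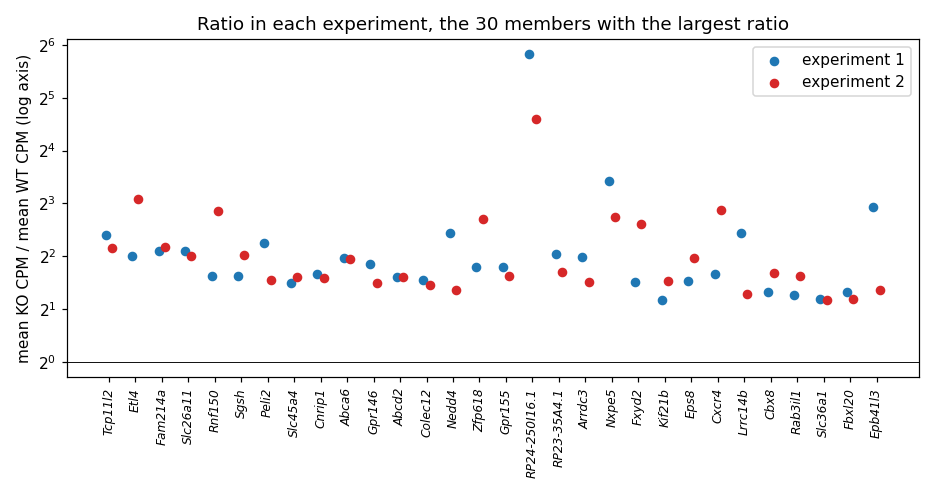
Mean KO CPM over mean WT CPM (log axis, base 2) in experiment 1 (blue) and experiment 2 (red) for the 30 members with the largest ratio, in order of rank. All points lie above 1, as the rule requires, and Etl4, Rnf150 and Cxcr4 were higher in experiment 2 while Nedd4, Lrrc14b and Epb41l3 were higher in experiment 1.

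All KO libraries were above all WT libraries in 48 of the 62 members (9.84% of the 10758 genes), and 14 members overlapped. The rule fixes KO over WT within each experiment, so the count of 48 is a description and nothing is read from it against that share. In 59 of 62 members the group means ran from WT experiment 2 through WT experiment 1 and KO experiment 2 to KO experiment 1, an order held by 13.6% of the 10758 genes. The rule fixes this order in part, so nothing is read from that share either. The mean of the KO libraries of experiment 2 was a median of 1.42 times that of the WT libraries of experiment 1 (range 0.766 to 50.3), beside 1.02 for all 10758 genes.

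**Figure D3:**
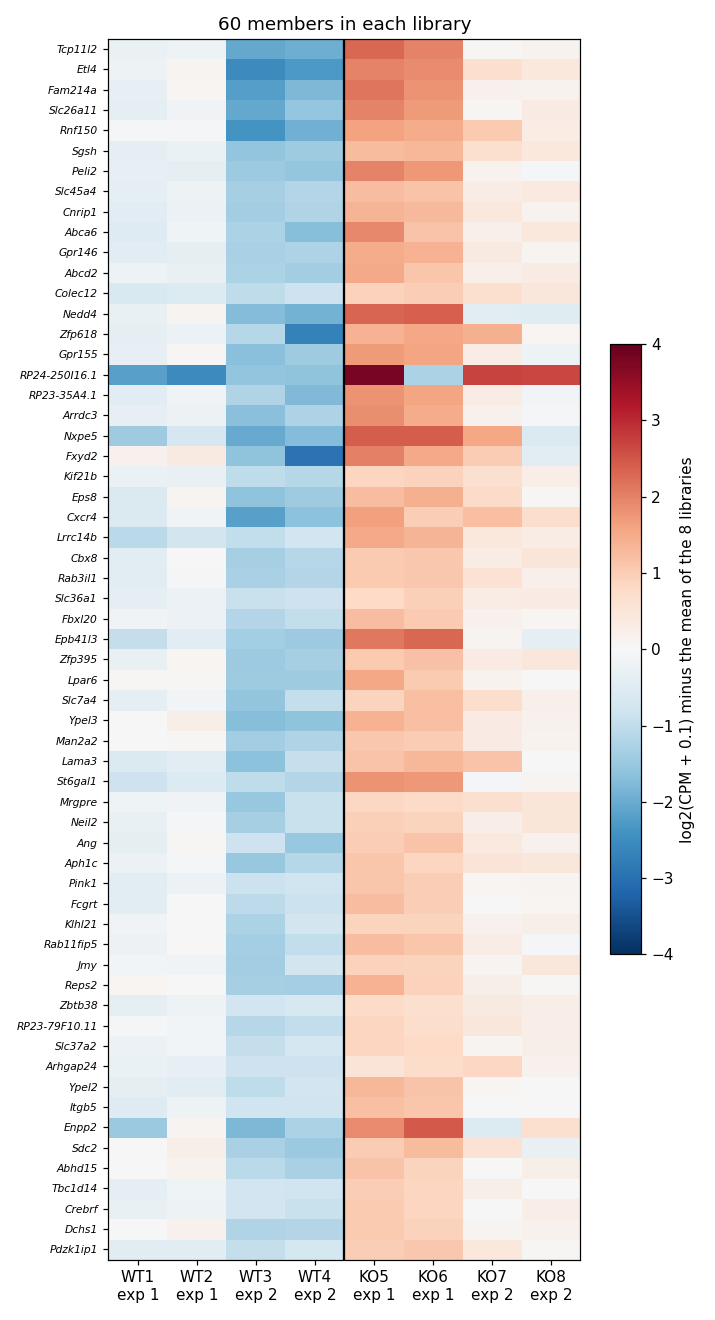
Log2(CPM + 0.1) of 60 of the 62 members (rows, in order of ratio) in each library (columns), minus the member's mean over the 8 libraries; red is above and blue below that mean. Rows run from lowest in WT3 and WT4 to highest in KO5 and KO6 in nearly every member, and RP24-250I16.1 stands out by its low value in KO6.

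In WT libraries, 52 of the 62 members were lower in experiment 2 than in experiment 1 and 0 were higher (edgeR, adjusted p below 0.05), where 14.1% of the 15618 genes were lower and 14.9% higher. Among the 10758 genes, 17.2% were lower and 17.2% higher. The median log2 difference of the members was -1.02, beside 0.00 over all genes tested. Single members are given without a p-value, since the rule chose them by these same values. Tcp11l2 fell by 1.76 ± 0.14 (SE) on the log2 scale, Ypel3 by 1.74 ± 0.12 and Etl4 by 2.42 ± 0.17. The 10 members that did not pass include Lrrc14b, with 0.08 ± 0.22, and St6gal1, with -0.36 ± 0.12. Of the 52, 29 passed whichever 1 library was left out, and without WT2 only 29 members passed. In WT libraries both values of experiment 1 were over both values of experiment 2 in 59 members, beside 40.6% of the 10758 genes.

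In KO libraries, 46 members were lower in experiment 2 and 0 were higher, where 16.1% of all genes tested were lower and 17.4% higher. Among the 10758 genes, 13.4% were lower and 22.8% higher. The median log2 difference was -0.80, beside -0.02 over all genes tested. Nedd4 differed most, by -2.74 ± 0.14, and Epb41l3 differed by -2.27 ± 0.23, again given without a p-value. Cxcr4 did not pass in KO libraries, at -0.29 ± 0.27, nor did Arhgap24, at -0.02 ± 0.20. Of the 46, 29 passed whichever 1 library was left out, and without KO5 only 29 members were lower. Both KO libraries of experiment 1 were over both of experiment 2 in 58 members, beside 38.8% of the 10758 genes.

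These differences are not independent of how the members were chosen. Since the WT libraries of experiment 1 and the KO libraries of experiment 2 were alike over all genes, a gene above WT in KO libraries of experiment 2 also tends to be higher in WT libraries of experiment 1 than of experiment 2. A gene above WT in KO libraries of experiment 1 likewise tends to be higher there than in KO libraries of experiment 2. The counts of 52 and 46 are therefore a description of the members' pattern and not a test. So are the counts with 1 library left out and the values of single members. The experiment also cannot be told apart from the animals, cultures and sequencing of each batch.

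**Figure D4:**
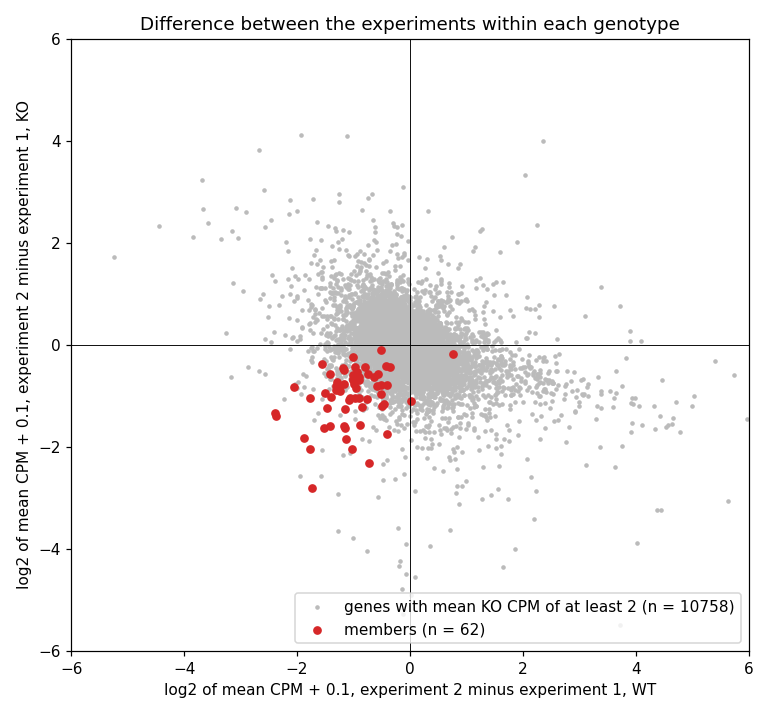
Log2 of mean CPM + 0.1 in experiment 2 minus experiment 1, for WT (horizontal axis) and KO (vertical axis), for the 10758 genes with a mean KO CPM of at least 2 in each experiment (grey) and the 62 members (red); 1 gene lies outside the axes. All members lie below 0 for KO and 60 of 62 lie below 0 for WT.

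The size of the KO effect in each experiment was then set side by side. These are the KO and WT values that chose the members, with a KO excess required in both experiments, so they are given as a description with no test. Rnf150 differed from WT by a log2 of 1.52 in experiment 1 and 2.81 in experiment 2 (difference 1.28 ± 0.34, SE), and Cxcr4 by 1.58 and 2.82 (difference 1.24 ± 0.38). Etl4 differed by 1.91 and 3.02 (difference 1.10 ± 0.23). In a fit over all genes, the threshold for a difference between experiments (interaction, edgeR adjusted p below 0.05) was crossed by 39.8% of all 15618 genes and 44.8% of the 10758. Of the members, 15 crossed it, and 8 without WT1 or without WT2. The larger effect was in experiment 2 for 7 (20.2% of all genes tested) and in experiment 1 for 8 (19.7%). Nothing is read from these counts, since the rule kept out genes whose effect was absent or reversed in 1 experiment. The other 4 of the 7 were Sgsh, Ypel3, Man2a2 and Aph1c.

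In the opposite direction, Epb41l3 differed from WT by 2.85 in experiment 1 and 1.30 in experiment 2 (difference -1.55 ± 0.35), and St6gal1 by 2.35 and 1.05 (difference -1.31 ± 0.17). Nedd4 differed by 2.34 and 1.30 (difference -1.04 ± 0.20) and Lrrc14b by 2.34 and 1.23 (difference -1.11 ± 0.29). Peli2, Pink1, Ypel2 and Itgb5 were the remaining 4 of the 8. Among the other members, Fam214a had nearly equal effects, 2.02 and 2.13 (difference 0.11 ± 0.25), as did Slc26a11, with a difference of -0.05 ± 0.24, and Slc36a1, with 0.02 ± 0.13. For Mkl1, which is no member, the reduction was larger in experiment 2 (difference -0.77, edgeR adjusted p = 0.0245).

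Of the 62 members, 59 were placed on GRCm38.p6 by RefSeq, all protein coding, on 18 chromosomes. Chromosome 11 held 9 (15.3%, beside 8.59% of the expressed genes), among them Sgsh, Slc26a11, Slc36a1 and Cbx8. On chromosome 15, where Mkl1 lies, were 4 members (6.78%, beside 3.94%). Nearest to the Mkl1 start were Slc45a4, at -7.435 Mb, and Abcd2, at 10.134 Mb (negative towards lower coordinates), and Enpp2 and Sdc2 lay farther away.

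Nearest to the ratio of 1.7 were, inside, Pdzk1ip1 at 1.706, Dchs1 at 1.714 and Crebrf at 1.717. Outside were Mknk2 at 1.689, Wwp1 at 1.687 and RP24-503A2.8 at 1.682. The ratios thus ran on without a gap across the limit.

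Of the other fixed lists, 1 of 12 macrophage markers rose (Mertk, 19.5 to 33.8 CPM in WT and 33.8 to 108 CPM in KO libraries) and 0 fell. Mertk missed without WT1, WT2, WT4, KO5, KO6 or KO7 (adjusted p 0.0615 to 0.0806). Of 8 tested osteoclast genes 1 rose (Nfatc1) and 0 fell, with Acp5 at 2.88 to 16.1 CPM and Ctsk at 6.10 to 16.6 CPM. The osteoclast list summed to 209.7 to 214 CPM in KO5 and KO6, 83.8 to 92.7 CPM in WT1 and WT2, 86.0 to 174 CPM in WT3 and WT4 and 75.7 to 88.5 CPM in KO7 and KO8. In it Atp6v0d2, a proton pump subunit, had 108 and 103 CPM in KO5 and KO6, 11.99 to 34.4 CPM in 5 other libraries and 116 CPM in WT4. Itgb3, the integrin beta 3 chain, had 4.38 to 6.56 CPM in WT and 8.97 to 30.3 CPM in KO libraries and did not pass (log2 difference 1.66, edgeR adjusted p = 0.0522). Of 3 mast cell and basophil genes 1 rose, Mcpt8, which was at 1.21 and 1.34 CPM in KO5 and KO6 and at 0 in the other 6 libraries, while Cpa3 and Mcpt4 were at or near 0. Nfatc1 missed without WT1, WT2 or KO5 (adjusted p 0.0531 to 0.0568), and Mcpt8 without WT1, WT2, WT4, KO5, KO6 or KO7 (0.0511 to 0.165). None of 4 tested dendritic cell genes passed, with Flt3 at most 0.0294 CPM and Zbtb46 at most 0.611 CPM, and their sum was 28.8 to 38.9 CPM in KO5 and KO6 and 7.09 to 9.89 CPM in the others, nearly all of it Clec10a in KO5 and KO6. None passed among 7 fibroblast genes, where Col1a1 had 14.9 and 23.8 CPM and Col1a2 84.9 and 110.2 CPM in KO5 and KO6. None passed among 1 neutrophil, 2 lymphocyte, 2 erythroid and megakaryocyte and 10 alternative activation genes. In those lists Ly6g, Cd3e, Cd3g, Hbb-bs, Hba-a1 and Retnla were at or near 0, and S100a8 was at most 1.30 CPM. Pf4, a platelet chemokine, had 10.2 to 93.9 CPM. The alternative activation list summed to 845 to 993 CPM in KO5 and KO6, 379 to 490 CPM in WT1 and WT2, 451 to 694 CPM in WT3 and WT4 and 291 to 481 CPM in KO7 and KO8, with a median log2 difference of 1.38 in experiment 1 and -1.45 in experiment 2. In it Folr2, a folate receptor, had 63.9 to 673 CPM, Il4ra, the interleukin receptor chain, 56.7 to 241 CPM and Clec7a, a glucan receptor, 14.0 to 107 CPM. The part of other cells in the members' values was not tested, and in experiment 2, where members were also higher in KO, summed fibroblast markers were 1.702 to 10.6 CPM in KO and 8.05 to 11.1 CPM in WT libraries. In bulk RNA, more cells of a kind and more RNA per cell cannot be told apart.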

How the data were processed

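Bulk RNA-seq of 8 BMDM libraries was analysed, 4 WT and 4 KO, with group and experiment taken from the sample labels. The authors deposited raw counts per gene in 1 table for each experiment. The submitters' processing notes name STAR 2.7.0f, Subread 1.6.4, featureCounts, DESeq2 1.22.1 and GRCm38. Annotation and counting options are not given in the sources used here. Normalized count tables were not used, because they were scaled within each experiment. CPM is counts divided by the column total. Replicate pairs differed by more than counting noise (chi-square per gene 12.0 to 80.4). The labels do not say whether libraries came from separate animals, so p-values measure the spread between these libraries.

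Tests used edgeR 4.0.16 in R 4.3.3 (TMM, filterByExpr, 15618 genes, robust quasi-likelihood F test, Benjamini-Hochberg, 0.05). KO against WT had experiment as a term. Contrasts between experiments used a fit of 4 groups. The SE is the log2 difference over the square root of F. The fits were also run on simulated counts with the same spread for every gene. That is a simpler case than these data, and nothing here rests on it. Members and lists were chosen with earlier results of these data known, and family relatives, roles, E-box and forkhead motifs after the members were seen. Named were Mkl1, the 30 members with the largest smaller ratio, the genes nearest the limit and the first 2 genes of each list. Other genes were named after their values were seen. Promoter windows came from RefSeq, and positions from RefSeq with strands from GENCODE M21. Alternatives were DESeq2 1.42.0, other filters, scalings, ratios and CPM minimums, no experiment term, each library left out and, added after seeing the data, KO libraries exchanged between the experiments and, for Mkl1, permutation within experiments. The values of a few genes are not reported here. Figures were drawn with matplotlib 3.10.9.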

Additional observations from a re-analysis of the deposited data

Results flagged for a closer look

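Among 60 members and Mkl1, 1 of 122 groups of 4 libraries held a library far from the other 3 by Dixon's test. Each group pooled both experiments, between which most members differed. That widens the range, so the usual chance rate of about 1 in 20 does not apply, and the test could miss libraries. RP24-250I16.1 in KO6, at 0.50 CPM beside 9.04 to 20.1 CPM in the other KO libraries, was not flagged. Enpp2 in WT2 was at 2.00 CPM, above the other WT libraries at 0.459 to 0.713 CPM.

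In 15 members the size of the KO effect in experiment 1 and that in experiment 2 lay apart past the threshold of the edgeR interaction fit. The rule chose the members by these same values and required a KO excess in both experiments, so the differences are a description and not a test. As the log2 KO effect in experiment 2 minus that in experiment 1, the difference was 1.10 in Etl4, 1.28 in Rnf150, 0.44 in Sgsh, 1.24 in Cxcr4, 0.78 in Ypel3, 0.54 in Man2a2 and 0.71 in Aph1c. It was -0.66 in Peli2, -1.04 in Nedd4, -1.11 in Lrrc14b, -1.55 in Epb41l3, -1.31 in St6gal1, -0.42 in Pink1, -0.66 in Ypel2 and -0.67 in Itgb5. Such differences were called in 39.8% of all genes tested. Their cause was not tested.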

How the results depend on the processing

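WT and KO libraries were matched by experiment, as a term in the fit; replicate numbers, which the groups do not share, paired no single libraries. The number of genes that met the rule, 62 as reported, was 138 at a ratio of 1.5, 31 at a ratio of 2 and 3 when the lowest of all KO was set against the highest of all WT libraries, and 7 (3 of them members) where each experiment's WT was set against the other experiment's KO libraries. With 1 library left out it was 64 to 130, with 106 without WT4 and 130 without KO8. It was 49 to 85 under the other CPM minimums and scalings. Looser rules and fewer libraries let more genes pass by construction. The exchange of KO libraries lets fewer pass, since it sets the nearest groups against each other. KO against WT called 1070 genes with edgeR, 2557 with DESeq2, 4 without the experiment term (3247 at an unadjusted p under 0.05) and 231 to 1128 with 1 library left out: 231 without WT1, 358 without WT2, 542 without WT4, 283 without KO5, 396 without KO6 and 365 without KO7. With 1 library left out, members lower in experiment 2 numbered 29 to 55 in WT (52 as reported, 29 without WT2) and 29 to 48 in KO (46 as reported, 29 without KO5), and members past the threshold of the interaction fit, a description, numbered 8 to 18 (15 as reported, 8 without WT1 and without WT2). Under the other filters and scalings and DESeq2 these counts were 52 to 58, 47 to 54 and 14 to 19. Mkl1, with a log2 difference of -0.78 that missed the threshold, passed it with DESeq2 (-0.79) and with no filter (-0.79). An exact permutation test within experiments, added after seeing the data, gave Mkl1 a p of 0.0556. No member's difference between experiments that was past the threshold changed direction. No member's KO minus WT difference did so either, which the rule all but ensures, so nothing is read from it. Of members not past the threshold, 1 of 10 changed sign in WT, 5 of 16 in KO and 17 of 47 for the difference between experiments. Among them was RP24-250I16.1 without KO5, which was then higher in experiment 2 in KO (log2 4.27) and had the larger KO effect there (by 3.21). With 2 libraries a group, 1 library can decide a call.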
